A study of Mus musculus with 65 samples.

Results

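Chromatin immunoprecipitation with an antibody to total histone H3.3 (Invitrogen RM190) was compared between wild-type mouse embryonic stem cells (day 0) and the embryoid bodies grown from them (day 6). The comparison rests on 12 of the 65 samples of the series, which are 3 sequencing runs of each of 4 libraries, B1 and B2 at each day, out of 16 ChIP libraries in all. The members were every one of the 14812 regions in the authors' deposited H3.3 table for these days, each with 1 value of scaled reads per library, and the peak lists of the same 4 libraries. Day 0 cells grew on gelatin in serum with leukemia inhibitory factor. Day 6 cells had grown without that factor, with 10 µM all-trans retinoic acid and under constant rotation. The cell line is given only as wild-type, so both days stand for 1 line. The submitters call the duplicates biological, but the labels do not say that they were separate cultures, so the p-values measure the spread between these samples, which may be technical.

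H3.3 is the histone H3 variant that cells deposit outside DNA replication. The HIRA complex places it at active genes and regulatory elements, where nucleosomes turn over, and the DAXX and ATRX pair places it in silent repeats and at telomeres. In embryonic stem cells it is also found at promoters that carry Polycomb's repressive mark on lysine 27. Retinoic acid binds retinoic acid receptors that sit on paired short sites in DNA, and it switches on the enzymes and receptors of its own pathway, HOX genes and neural genes, while the pluripotency network is switched off.

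The RNA of separate wild-type libraries, 2 at each day, matched the labelled states. The dates in their labels lie in the year before those of the ChIP samples. A wild-type RNA set with a later date was not used. CPM values are gene counts scaled to the library total after edgeR's TMM factor of that library was applied to the total. Pou5f1, the core pluripotency factor, was at 1876 and 1344 CPM at day 0 and at 16.8 and 20.8 at day 6. Nanog was at 408 and 485 CPM and then at 11.4 and 13.99. Hoxa5 was at 0.321 and 0.281 CPM at day 0 and at 322 and 337 at day 6, and Nes, the intermediate filament gene of neural progenitors, went from 46.3 and 30.8 to 211 and 201. Embryoid bodies hold several cell types, so a change in the share of cells that carry H3.3 at a site and a change in its amount per cell cannot be told apart.

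The libraries held 55620750 and 54788913 aligned tags at day 0 and 81646440 and 56108353 at day 6. The regions were broad, with a median width of 19.8 kb and a total of 544 Mb. The median absolute log2 difference over all regions was 0.06 between the duplicates of day 0, 0.09 between those of day 6 and 0.23 between the means of the days. The variance between duplicates was 1.33 times counting error at day 0 and 2.10 times at day 6, so the duplicates did not agree within counting error, which does not show that they came from separate cultures. In 11843 regions (80.0%) both day 6 values lay on the same side of both day 0 values. Each difference below is the log2 of scaled reads plus 1, day 6 minus day 0, with its standard error (SE) and the adjusted p of limma across all regions. The scaling equalises library size, so all differences are relative amounts.

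H3.3 was lower at day 6 in more regions than it was higher. By limma, 2732 regions (18.4%) were higher and 6466 (43.7%) were lower at an adjusted p below 0.05, and the median difference over all regions was −0.12. The balance of the directions rests on the scaling: of the called regions, 29.7% were higher with the deposited scaling, 43.1% after centring each library on its median and 50.6% after TMM scaling, which moved the median of all regions to 0.00. Regions called under all 3 scalings numbered 2732 higher (18.4%) and 4674 lower (31.6%), so every region called higher stayed called under those 3. Both other scalings moved the differences upward, with medians of −0.04 after median centring and 0.00 after TMM scaling. A call of higher could therefore hardly be lost, and here and below the 3 scalings put only the falls to a test. With 2 against 2 libraries an exact permutation test of 1 region cannot go below 0.333. The adjusted p-values reach far lower because limma found no more variation in spread between regions than their signal predicts and gave every region the spread of its signal level. Without that trend the counts were 2576 and 6174.

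**Figure D1:**
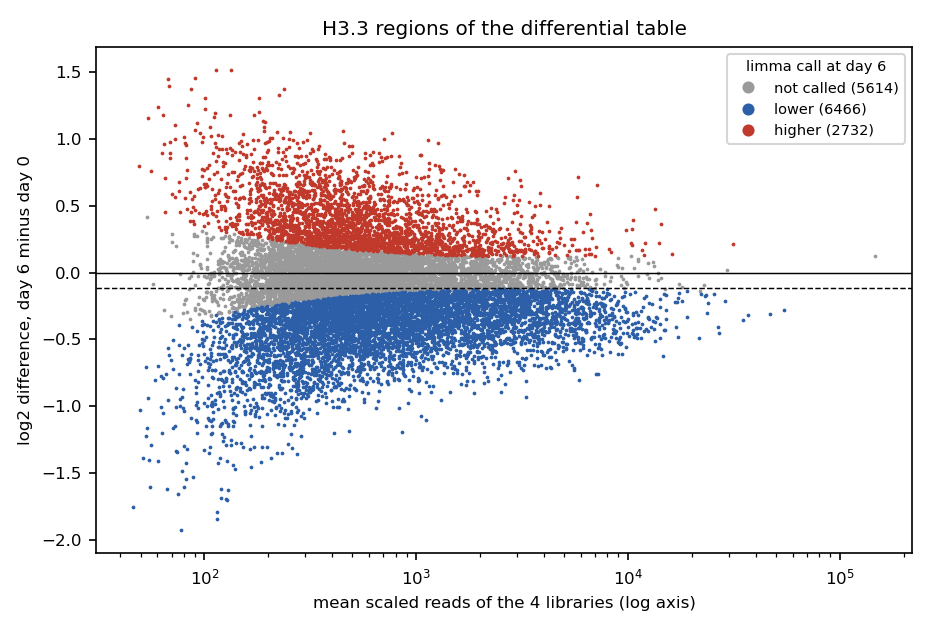
Log2 difference in H3.3 scaled reads, day 6 minus day 0, against the mean scaled reads over 4 libraries (log axis) for all 14812 regions. Each point is a region coloured by its limma call, and the dashed line is the median difference of −0.12.

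Rarb encodes a retinoic acid receptor and is a direct target of the hormone. Its start site lay in the region with the greatest rise among called start-site regions at or above the median signal, which is the set that the rises and falls named below come from, with or without a start site. Cyp26a1, the enzyme that degrades retinoic acid, and Nanog, a homeodomain factor of the pluripotent state, lay in a region that rose and in one that fell. Short stretches before a RefSeq start site of each gene are shown because of the sites in them. They carry the paired sites of retinoic acid receptors (Rarb, Cyp26a1) or the joined OCT4 and SOX2 site (Nanog), in capitals. They are RefSeq sequences (GRCm38.p6) from chr14:16575506-16575535 on the minus strand, and from chr19:37697608-37697797 and chr6:122707289-122707488 on the plus strand, each given along its gene.
Rarb: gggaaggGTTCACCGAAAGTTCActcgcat
Cyp26a1: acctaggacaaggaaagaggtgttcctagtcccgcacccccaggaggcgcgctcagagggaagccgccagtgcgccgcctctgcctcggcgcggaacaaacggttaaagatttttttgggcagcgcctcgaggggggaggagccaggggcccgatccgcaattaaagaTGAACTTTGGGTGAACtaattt
Nanog: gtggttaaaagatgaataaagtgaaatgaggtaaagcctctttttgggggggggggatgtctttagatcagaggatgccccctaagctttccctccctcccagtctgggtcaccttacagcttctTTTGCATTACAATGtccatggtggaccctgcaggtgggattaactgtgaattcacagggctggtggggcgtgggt

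The Rarb match lies 52 to 37 bases before the RefSeq start. By the GENCODE start that gave Rarb its region, chr14:16575543, the match lies after the start. The Cyp26a1 match, on the opposite strand, lies 32 to 17 bases before its RefSeq start. The Nanog match lies 75 to 62 bases before its start. The direct repeat of retinoic acid receptor sites with 5 bases between them, the first base of each site left free, searched on both strands, was in 25 of 32851 promoter windows of 300 bases (0.0761%), and among the 24 windows matched to the retinoic acid list in 2, Cyp26a1 and Rarb. The joined OCT4 and SOX2 site, searched on both strands, was in 2 windows (0.00609%), both of Nanog. These matches are a description of the letters, while the H3.3 values below are sums over much wider regions around them.

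At Rarb (chr14:16533451-16578823) H3.3 was at 767 and 754 scaled reads at day 0 and at 1556 and 1466 at day 6. The difference was 0.99 ± 0.06 (SE, n = 2 per day; limma adjusted p = 2.2e-49). Rarb RNA went from 0.321 and 0.281 to 174 and 162 CPM. Dhrs3, a retinal reductase, had 866 and 849 reads and then 1765 and 1606, a difference of 0.97 ± 0.06. Its RNA was at 0 in both day 0 libraries and at 5.69 and 6.58 CPM at day 6. Cyp26b1, a second enzyme that clears retinoic acid, had 603 and 624 reads and then 1093 and 1034, a difference of 0.79 ± 0.07, and its RNA went from 1.13 and 0.469 to 630 and 593 CPM. That the days do not overlap in these and the other named rises and falls was a condition of their choice.

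The other start-site regions among the 10 greatest rises were as follows. Igf1, an insulin-like growth factor, had 435 and 439 reads at day 0 and 864 and 774 at day 6 (0.90 ± 0.08). P3h2, a collagen prolyl hydroxylase, had 716 and 771 and then 1410 and 1333 (0.88 ± 0.07). Lhfpl2 had 899 and 892 and then 1614 and 1515 (0.80 ± 0.06). Sema6a, a membrane-bound guidance cue, rose by 0.78, Tes, a focal adhesion protein, by 0.75, and Fzd4, a Wnt receptor, and Nedd9, an adhesion scaffold, each by 0.74. RNA of 10 of these 10 genes was called higher at day 6 by edgeR's quasi-likelihood test, against 41.4% of all 13593 genes tested. All 10 regions overlapped an H3.3 peak found in both duplicates of day 6. No such peak of day 0 overlapped 8 of them, all but Lhfpl2 and Nedd9. These H3.3 peaks come from the same reads that ranked the regions, so they are no separate support. Peaks of H3K27me3 in both duplicates covered 70.1% of the Cyp26b1 region at day 0, 45.6% at Fzd4, 41.2% at Nedd9, 30.7% at Lhfpl2, 29.7% at P3h2, 20.1% at Tes, 8.43% at Dhrs3, 3.14% at Sema6a and 0% at Rarb and Igf1. They covered 0% of each of the 10 at day 6, while over all regions called higher the covered share was 33.7% at day 0 and 31.5% at day 6.

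Several rises lay away from start sites. The greatest of all was a stretch at chr11:18743984-18768520. It lay outside the HOX cofactor gene Meis1, whose start site, 250194 bases away, was the nearest of the protein-coding genes. This stretch had 525 and 481 reads at day 0 and 1075 and 996 at day 6 (1.04 ± 0.07). Inside Usp29, an imprinted gene next to Peg3, 2 regions rose by 1.00 ± 0.07 and 0.90 ± 0.08. Further stretches near Dhrs3 (0.90 ± 0.07), Bbox1 (0.88 ± 0.07) and Gata6 (0.88 ± 0.08, 129626 bases away) also rose. Nearness does not assign these stretches to the genes.

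**Figure D2:**
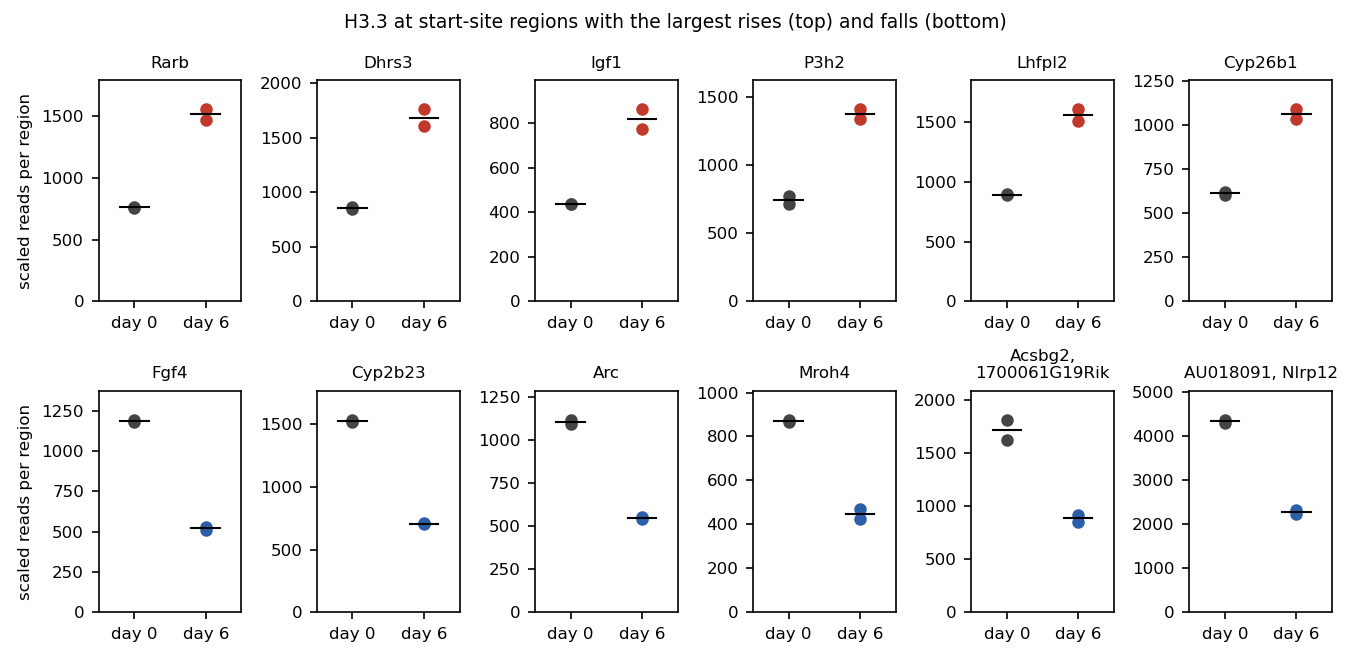
H3.3 scaled reads in each of the 4 libraries at the 6 start-site regions with the greatest rise and the 6 with the greatest fall. Points are libraries and lines are the means of each day. Regions were chosen with days that do not overlap, and at Rarb the libraries go from 767 and 754 to 1556 and 1466.

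The greatest fall was at Fgf4, a growth factor made by pluripotent cells (chr7:144847504-144877020). It had 1194 and 1180.0 scaled reads at day 0 and 531 and 509.7 at day 6, a difference of −1.19 ± 0.07 (SE, n = 2 per day; limma adjusted p = 1.4e-60). Fgf4 RNA went from 270 and 251 to 0.517 and 1.65 CPM. H3K27me3 peaks covered 0% of this region at day 0 and 42.7% at day 6. Of the other 9 start-site regions of the greatest falls, Foxd3 went from 28.6% to 38.5% and Slc52a3 from 17.7% to 0%, and the rest were at 0% at both days. Arc, a gene of neuronal plasticity, had 1120.0 and 1097 reads and then 544 and 554 (−1.01 ± 0.07), and its RNA went from 36.5 and 47.8 to 0.517 and 1.10 CPM. Esrrb, an orphan nuclear receptor of the naive state, had 3341 and 3377 reads and then 1950 and 1814 (−0.84 ± 0.06). Foxd3, a forkhead factor of the same cells, had 2106 and 2066 and then 1219 and 1121 (−0.83 ± 0.06). The region over Acsbg2, a fatty acid activating enzyme gene, and 1700061G19Rik had 1631 and 1817 reads and then 923 and 855 (−0.95 ± 0.06), and RNA of both genes was called lower. Slc52a3, a riboflavin transporter gene, had 1525 and 1569 and then 858 and 858 (−0.85 ± 0.06), and its RNA was called lower as well. All of these regions overlapped an H3.3 peak found in both duplicates at day 0 and none at day 6. The H3.3 peaks rest on the same reads as the ranking of the falls.

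Some of the deepest falls covered genes with almost no RNA. At Cyp2b23, a cytochrome P450 gene, H3.3 went from 1515 and 1536 reads to 715 and 702 (−1.10 ± 0.07), with RNA at 1.61 and 2.34 CPM and then 0.222 and 0.366. Vmn1r1, a pheromone receptor gene, fell by 0.90 in H3.3 with 0 RNA counts in all 4 libraries. H3 was also called lower over these 2 regions in its own table, by −0.18 and −0.34. Mroh4, next to Arc, fell by 0.96 in H3.3 with 16 RNA counts at day 0 and 1 at day 6. The fall inside Pax5, a B cell and midbrain factor, was −0.97 ± 0.08, while Pax5 RNA was at 0 in both day 0 libraries and at 4.87 and 5.67 CPM at day 6. Falls that covered no start site lay nearest to Inhbb (−1.07 ± 0.07), E2f8 (−1.01 ± 0.08), Dnajb6 (−0.98 ± 0.07) and Grhpr (−0.95 ± 0.08).

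The region over AU018091 and Nlrp12 (chr7:3143945-3252062) contained the miR-290 microRNA cluster, the main microRNAs of mouse embryonic stem cells. It went from 4366 and 4294 scaled reads to 2315 and 2237, a difference of −0.93 ± 0.06 (limma adjusted p = 5.8e-58). AU018091 RNA went from 307 and 328 to 11.96 and 14.2 CPM. In it, 9 microRNA genes with 17 mature forms lie between positions 3218638 and 3220837. The mature forms from RefSeq below show why the cluster is treated as a family: 3 of them share the seed in capitals, bases 2 to 8, and each of the other 2 has a seed of its own.
miR-291a-3p: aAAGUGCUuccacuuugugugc
miR-294-3p: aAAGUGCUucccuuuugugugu
miR-295-3p: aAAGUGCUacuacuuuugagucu
miR-290a-3p: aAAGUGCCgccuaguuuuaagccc
miR-291b-3p: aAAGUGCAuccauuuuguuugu

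Of 1058 microRNA genes, 493 (46.6%) lay in an H3.3 region. For these 493 the region was called higher for 33 (6.69%) and lower for 357 (72.4%), with a median difference of −0.26, shares near those of the protein-coding genes. Of the protein-coding genes, 11276 of 20029 (56.3%) had a region within 1 kb of a start site. That region was called higher for 703 genes (6.23%) and lower for 7404 (65.7%), with a median of −0.23. Under all 3 scalings the shares were 6.23% and 51.1%. The 11276 genes share 6133 regions, so genes are not independent, and the lists below are described by counts and medians beside these shares.

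**Figure D3:**
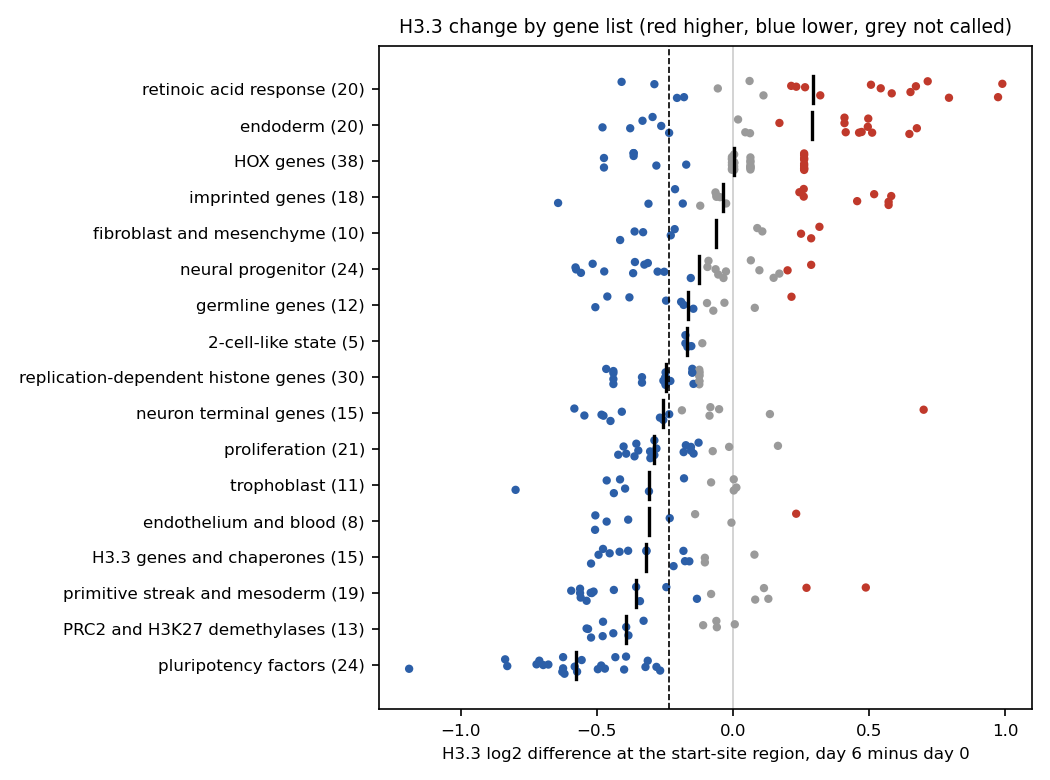
Log2 difference in H3.3 scaled reads, day 6 minus day 0, of the start-site region of each gene in 17 lists. Points are genes, bars are list medians and the dashed line is the median of all protein-coding genes with a region (−0.23).

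All 24 pluripotency genes that had a region were called lower, and all 24 stayed called under the 3 scalings. Their median was −0.58. RNA of all 27 genes of this list that were tested was lower, against 36.6% of all genes tested. At Pou5f1 H3.3 went from 4591 and 4730.0 scaled reads to 2916 and 2835, a difference of −0.70 ± 0.06. At Nanog it went from 17828 and 17737 to 12022 and 11081 (−0.62 ± 0.06), over a region of chr6:122578071-122893297 that covers other genes too. At Sox2, the partner of OCT4, it went from 6099 and 6132 to 4177 and 4050.5 (−0.57 ± 0.06). The Nodal coreceptor gene Tdgf1 had a difference of −0.83 and Tfcp2l1, a naive-state factor, of −0.72. The smallest falls in the list were at Sall4 (−0.27) and Tbx3 (−0.28).

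Of 20 retinoic acid response genes with a region, 13 were called higher and 4 lower (13 and 3 under the 3 scalings), with a median of 0.29. Besides Rarb, Dhrs3 and Cyp26b1, the HOX cofactors Meis1 (0.71 ± 0.06) and Meis2 (0.65) rose, as did Stra6, the retinol uptake receptor (0.67), and Nrip1, a receptor corepressor (0.54). At Meis1 H3.3 went from 4458 and 4361 scaled reads to 7682 and 6818. Cyp26a1 had 1808 and 1869 and then 2328 and 2095 (0.26 ± 0.06). The receptors differed among themselves: Rara (−0.29) and Rarg (−0.41) were called lower while Rarb was called higher. The retinoid binding protein gene Crabp1 (0.11 ± 0.10, adjusted p = 0.33) and the retinol dehydrogenase gene Rdh10 (0.06 ± 0.06, adjusted p = 0.38) were not called, and RNA of both was called higher.

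The HOX genes, which set position along the body axis, lay in few and broad regions: 38 genes shared 8 of them. The region over Hoxb1 to Hoxb9 (chr11:96246475-96469204) went from 6015 and 6260.0 scaled reads to 7959 and 6794, a difference of 0.26 ± 0.06 (limma adjusted p = 1.0e-05). The regions over Hoxc4 to Hoxc11 (0.00 ± 0.06) and Hoxd1 to Hoxd11 (0.00 ± 0.06) were not called. The regions at the 5′ ends of the clusters were called lower: Hoxc12 and Hoxc13 (−0.47 ± 0.06), Hoxa10 to Hoxa13 (−0.36 ± 0.06), Hoxb13 (−0.28 ± 0.06) and Hoxd13 (−0.17 ± 0.07). The Hoxd13 call was lost under TMM scaling, where its difference was −0.05. Of all 14812 H3.3 regions, 18.4% were called higher and 43.7% lower. RNA was called higher for 30 of the 32 HOX genes tested, Hoxa10 among them, and lower for 1, Hoxc13. Of all 13593 genes tested, RNA was called higher for 41.4% and lower for 36.6%.

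Of 20 endoderm genes with a region, 11 were called higher and 6 lower, also under the 3 scalings, with a median of 0.29. Dab2, an endocytic adaptor, had 1277 and 1389 scaled reads and then 2175 and 2079 (0.67 ± 0.06). Gata6, the master factor of primitive endoderm, had 1286 and 1332 and then 2161 and 1946 (0.65 ± 0.06), and its RNA went from 1.13 and 0.375 to 104 and 112 CPM. Foxa2 (0.51 ± 0.06) and the basement membrane laminin gene Lama1 (0.50 ± 0.06) rose too. Amn (−0.48) and Ttr (−0.38) were called lower.

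Of 24 neural progenitor genes with a region, 2 were called higher and 12 lower (10 under the 3 scalings), with a median of −0.12. That median was −0.002 after TMM scaling. Of all protein-coding genes with a region, 65.7% were called lower (51.1% under the 3 scalings), with a median of −0.23. RNA of 29 of the 32 list members tested was called higher, against 41.4% of all genes tested. At Nes H3.3 was at 266 and 278 scaled reads and then 203 and 163 (−0.58 ± 0.11; limma adjusted p = 7.4e-07), while its RNA was called higher. Dll3, a Notch ligand, had 631 and 662 and then 460 and 419 (−0.56 ± 0.08), with its RNA also called higher. Otx2, a factor of primed and anterior neural cells, had −0.58 ± 0.06, and Gbx1 −0.51 ± 0.06. Pax6 (−0.03 ± 0.06) and Sox11 (−0.06 ± 0.09) were not called. Irx3 (0.29 ± 0.06) and Irx5 (0.20) were the 2 that rose, both on chromosome 8.

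Of 15 neuron terminal genes with a region, 9 were called lower (7 under the 3 scalings) and 1 higher, Map2, a dendritic microtubule protein gene (254 and 273 scaled reads, then 434 and 423; 0.70 ± 0.09). Nefm, a neurofilament gene, had 665 and 634 and then 418 and 449 (−0.58 ± 0.08), although its RNA was called higher. Stmn2 (−0.55 ± 0.07) fell in H3.3 and in RNA, and Stmn3 fell in H3.3 (−0.48 ± 0.06) with its RNA called higher. Tubb3, the neuronal tubulin gene, had −0.45. Gap43 (−0.19 ± 0.11) and Elavl4 (0.14 ± 0.08) were not called. The list median was −0.26, against −0.23 for all protein-coding genes with a region, of which 65.7% were called lower (51.1% under the 3 scalings).

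Primitive streak and mesoderm genes had 13 called lower (12 under the 3 scalings) and 2 higher of 19, with a median of −0.36. Mesp2 (−0.59 ± 0.08), Wnt3a (−0.56 ± 0.07) and the region shared by the Nodal inhibitors Lefty1 and Lefty2 (−0.56 ± 0.06) fell, and Twist1 (0.49) and Gata4 (0.27) rose. Of 11 trophoblast genes 7 were called lower (6 under the 3 scalings) and 0 higher, with Tfap2c at −0.80 ± 0.07, Gata2 at −0.46 and Hand1 at −0.44. Of 10 fibroblast and mesenchyme genes 3 were called higher, among them Zeb2 (0.32 ± 0.06), and 5 lower (3 under the 3 scalings), among them Thy1 (−0.41 ± 0.10), Mmp2 (−0.36 ± 0.09) and Fn1 (−0.33 ± 0.06). Of 8 endothelium and blood genes 1 was called higher and 5 lower (4 under the 3 scalings), with Esam and Etv2 each at −0.51 and Pecam1 at −0.46. RNA was called higher for 10 and lower for 6 of 18 streak and mesoderm genes tested, and for 8 and 4 of 14 trophoblast genes. It was called higher for 16 and lower for 3 of 19 fibroblast and mesenchyme genes, and for 8 and 5 of 16 endothelium and blood genes. Of all genes tested, RNA was called higher for 41.4% and lower for 36.6%. The part of cell composition in these differences was not tested. Beside these lists, 65.7% of protein-coding genes with a region were called lower (51.1% under the 3 scalings) and 6.23% higher.

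Of 18 imprinted genes with a region, 8 were called higher and 4 lower, of which 8 and 2 stayed called under the 3 scalings. Peg3, a paternally expressed zinc finger gene that shares its region with Usp29, had 1229 and 1207 scaled reads and then 1892 and 1732 (0.57 ± 0.06). Airn, the noncoding RNA of the Igf2r locus, had 1033 and 1099 and then 1690 and 1504 (0.58 ± 0.06), and its RNA was at 0 at day 0. Igf2r itself had 836 and 837 and then 1260 and 1141 (0.52 ± 0.07). Phlda2, a growth restraint gene, had 310.3 and 294 and then 210.0 and 178 (−0.64 ± 0.11). Snrpn (−0.06 ± 0.06) and Plagl1 (−0.06 ± 0.07) were not called, and RNA of Plagl1 was called higher. The median of the list was −0.04 with the deposited scaling and 0.09 after TMM scaling.

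Of 15 genes of the H3.3 pathway with a region, 12 were called lower (9 under the 3 scalings) and 0 higher. Their median was −0.32. For this list and the next, the shares of protein-coding genes with a region were 65.7% lower (51.1% under 3 scalings) and 6.23% higher. H3f3b, an H3.3 gene, had 5314 and 5498 scaled reads and then 4319 and 3967 (−0.38 ± 0.06), and H3f3a, the other, had −0.18 ± 0.06, which became −0.06 under TMM scaling. Hira and Daxx each had −0.32 ± 0.06. Rbbp7 had −0.52 ± 0.11 and Chaf1b, of the replication chaperone CAF-1, −0.49 ± 0.06. Genes of PRC2, the complex that methylates H3 lysine 27, and of its demethylases were called lower in 9 of 13, with Eed at −0.54 ± 0.06 and Mtf2 at −0.53 ± 0.06, and 4, Ezh1, Ezh2, Kdm6b and Lcor, were not called.

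Of 71 ribosomal protein genes 58 were called lower (44 under the 3 scalings) and 0 higher, with a median of −0.26. Of 21 proliferation genes 18 were lower (12 under the 3 scalings), such as Tyms (−0.42), Mcm4 (−0.40), Gmnn (−0.39) and Cdc20 (−0.36), and Mki67 (0.16 ± 0.08) and Ccna2 (−0.07 ± 0.07) were not called. Replication-dependent histone genes had 21 lower of 30 (15 under the 3 scalings), in 9 shared regions. Zinc finger genes had 188 lower (148 under the 3 scalings) and 11 higher of 269, and olfactory receptors, of which 39 of 1085 had a region, 33 lower (28 under the 3 scalings). Germline genes had 7 lower and 1 higher of 12, with Stk31 at −0.51 ± 0.07, and 3 lower and 1 higher under the 3 scalings. Of 5 genes of the 2-cell-like state 4 were called lower, and 0 remained called under the 3 scalings. Near-identical copies in the last groups could share reads. The shares of all protein-coding genes with a region were 65.7% lower (51.1% under the 3 scalings) and 6.23% higher.

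H3.3 and RNA changes were compared at the 9315 protein-coding genes that had a region and a tested RNA. Where H3.3 was called higher, RNA was called higher for 467 of 589 genes (79.3%) and lower for 52. Over all 9315 genes RNA was called higher for 36.6% and lower for 42.1%. Where H3.3 was called lower, RNA was called lower for 3085 of 6116 (50.4%) and higher for 1697. Pearson's r across these genes was 0.44 and Spearman's rho 0.37. Genes are not independent replicates and share regions, so this is a description.

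The H3.3 difference followed the size of the RNA change in steps. Genes whose RNA fell by over 4 on the log2 scale had a median H3.3 difference of −0.51 (n = 156), of which 152 were called lower and 1 higher. Genes whose RNA rose by 0 to 1 had a median of −0.20. Those whose RNA rose by over 4 had 0.06 (n = 358), of which 134 were called higher and 91 lower, and that median was 0.19 after TMM scaling. A rise in H3.3 was not called at most start sites of strongly induced genes.

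**Figure D4:**
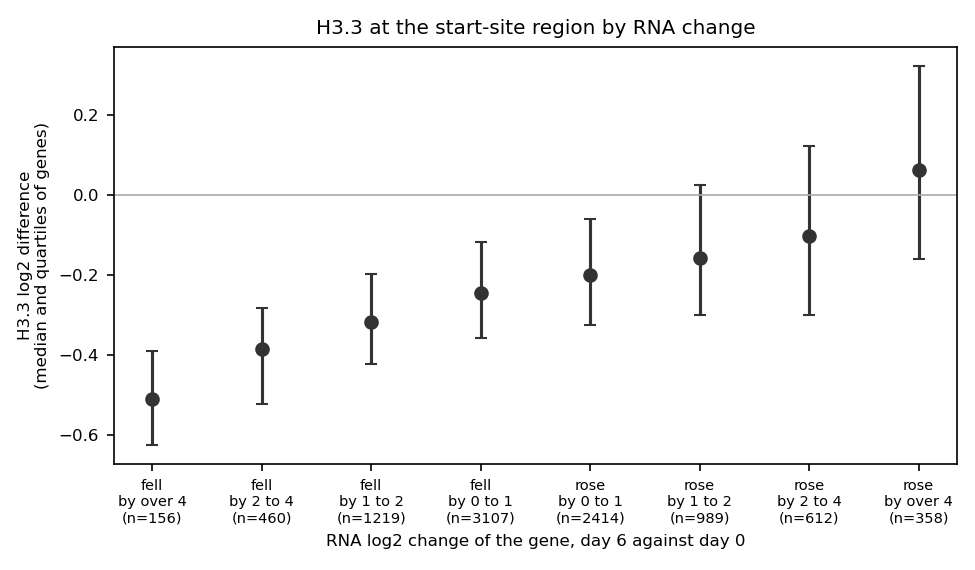
Median (points) and quartiles (bars) of the H3.3 log2 difference at start-site regions of genes grouped by their RNA log2 change. The medians go from −0.51 where RNA fell by over 4 to 0.06 where it rose by over 4.

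Regions inside genes but away from start sites were compared with RNA in the same way. Such a region was found for 1671 genes with tested RNA, and it was called higher for 420 (25.1%) and lower for 566 (33.9%). Where RNA was higher, H3.3 was called higher for 349 of 943 genes (37.0%) and lower for 241. Where RNA was lower, it was called higher for 29 of 425 and lower for 210 (49.4%). For the 185 genes whose RNA rose by over 4, H3.3 in the gene body was called higher for 110 (59.5%) and lower for 37, with a median of 0.31.

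The regions called higher and lower with the deposited scaling differed in several shares. A start site lay in 24.3% of the regions called higher, 51.2% of those called lower and 43.0% of those not called. For regions called under all 3 scalings the shares were 24.3% and 49.8%. Among regions with a difference of at least 0.5 after TMM scaling, a start site lay in 16.3% upward and 18.1% downward. The authors' deposited table labels as intron 19.1% of the regions called higher and 5.72% of those called lower. Peaks of H3K27me3 found in both duplicates of day 0 covered 33.7% of the length of the regions called higher, 12.2% of that of the regions called lower and 25.1% of the rest, and at day 6 they covered 31.5%, 9.65% and 21.9%. Among regions called with a difference of at least 0.5, the day 0 shares were close to each other, at 11.9% upward and 8.98% downward. Median signal density went from 23.4 to 30.4 scaled reads per kb in regions called higher and from 33.2 to 25.4 in regions called lower. Base composition moved with the difference: with the regions ordered by GC content in 5 groups of like size, the median difference went from 0.02 in the lowest to −0.28 in the highest, and the share called lower from 27.2% to 65.7%. The part of GC content and of signal density in the differences was not tested.

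Total H3, from its own ChIP libraries and its own table of 6618 regions, was called higher in 1189 (18.0%) and lower in 2268 (34.3%). Its balance turned with the scaling: of the called H3 regions 34.4% were higher as deposited, 51.7% after median centring (1614 higher, 1505 lower) and 55.6% after TMM scaling (1689 higher, 1348 lower). Of the H3.3 regions called lower, 1783 overlapped an H3 region, which was called lower for 1252 and higher for 18, with a median H3 difference of −0.21. Of those called higher, 690 overlapped one, which was called higher for 329 and lower for 103, with a median of 0.10. The tables were scaled separately, so no test was made between them. None of the Rarb, Dhrs3, Fgf4 and Esrrb regions overlapped an H3 region.

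Chromosome 8 stood apart. It held 1368 H3.3 regions, 10.6 per Mb and 65.3% of its length, against 4.71 to 7.21 per Mb on the 18 other autosomes. Of its regions 412 (30.1%) were called higher and 223 (16.3%) lower, with a median of 0.07, while the medians of the other autosomes lay between −0.22 and −0.05. In the H3 table chromosome 8 had 6.37 regions per Mb and chromosome 14 had 6.22, against 1.78 to 2.62 on the others. The median RNA change of its genes was 0.01. The X chromosome had 29 regions, 0 called higher and 22 lower. Without chromosome 8, the counts of the series-wide H3.3 comparison were 2309 higher and 6212 lower of 13444. Irx3, Irx5, Tubb3, Mmp2 and Asf1b are on this chromosome, and its part in their values was not tested.

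**Figure D5:**
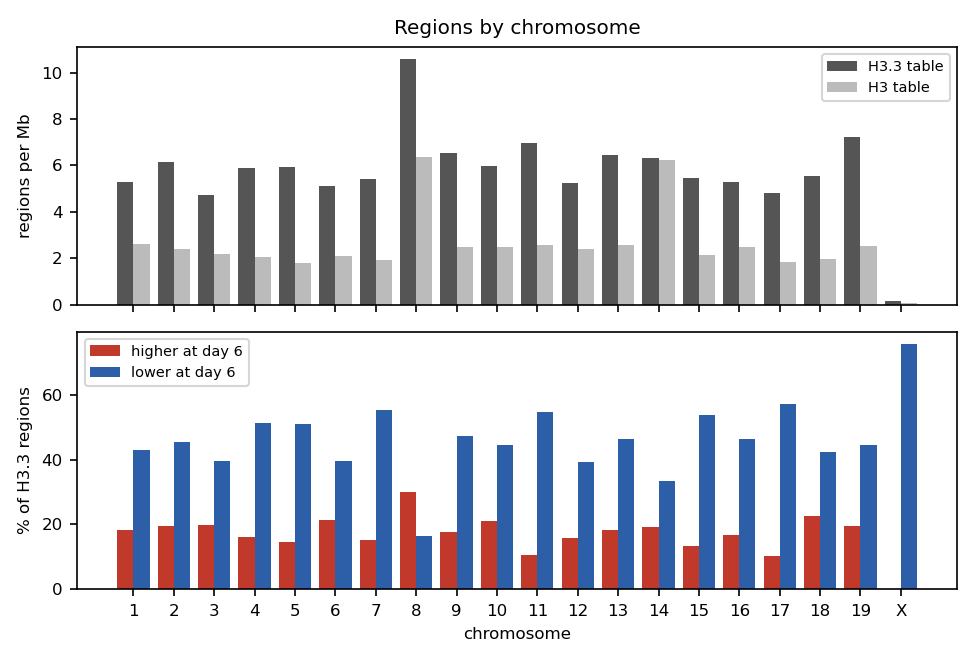
Regions per Mb in the H3.3 and H3 tables, and the percentage of H3.3 regions called higher and lower at day 6, by chromosome. Chromosome 8 has 10.6 H3.3 regions per Mb and is the one with more regions called higher (30.1%) than lower (16.3%).

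Peak lists gave a coarser view of the same libraries. Filtered peaks numbered 18975 and 16775 at day 0 and 18639 and 18683 at day 6, and covered 338 and 424 Mb and then 351 and 260 Mb. Of the peaks of 1 duplicate, 69.3% and 63.0% overlapped a peak of the other at day 0, and 54.9% and 64.5% at day 6. Their fold enrichment, the authors' own value, was at least 5 in 161 and 180 peaks at day 0 and in 85 and 83 at day 6. Regions called lower overlapped a peak of both duplicates in 88.9% at day 0 and 37.8% at day 6, and regions called higher in 18.1% and 88.8%, which rest on the same reads as the calls.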

How the data were processed

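Per the labels' protocols, formaldehyde-fixed chromatin was sonicated and precipitated with 5 µg of antibody, with 2 replicates per ChIP, and each library was sequenced in 3 runs that the authors joined. Per the submitters' processing notes, reads were aligned to mm10 with STAR 2.5.2a, and MACS2, DiffBind, HTSeq and DESeq2 were used. Per the file headers, peaks were called per library with MACS 2.2.6 at p 0.01, without a control library and without a local background, with a minimum length of 1000 bases, a maximum gap of 5000 and 1 tag per position; the deposited score, signal, fold enrichment (ratio) and −log10 p-value columns come from it, and the filter that gave the deposited shorter lists is not given in the sources used here. No control library means that copy number and mappability are not divided out. The deposited H3.3 and H3 tables hold scaled reads (signal) per region and library, plus the authors' log2 fold change and p-value. A count test was not run on them because the deposited values are scaled, so that most are not whole counts. For the comparison of duplicates with counting error, the H3.3 reads were scaled back by the tag total of each library. The authors' deposited table called 7461 regions at an FDR below 0.05, 2065 higher and 5396 lower at day 6, and 7436 of these were called here in the same direction. The deposited RNA counts per gene had 6965704 to 12711698 reads assigned to genes per library in the 6 wild-type libraries used; day 3 only added to the estimate of spread, and 35.3 to 50.8% of reads, not assigned to a gene, were left out.

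Differences in H3.3 were fitted with limma 3.58.1 (R 4.3.3) on log2(scaled reads + 1), with a trend, Benjamini-Hochberg adjusted over all regions. A log2 difference with a pseudocount of 1 understates the change of low regions. RNA was tested with edgeR 4.0.16 (quasi-likelihood, TMM). A gene's region is the one that overlaps 1 kb on either side of a start site of its GENCODE transcripts (mm10, GRCm38), the one with the highest mean where there are several; 41 ambiguous symbols were left out. Named regions are the 10 greatest rises and 10 greatest falls among called regions at or above the median signal whose days do not overlap, the same among regions at start sites, and up to 4 called and 2 not called members of each of 20 gene lists; other list members were named after their values were seen, and the results of 2 list members are not reported here. Promoter and microRNA sequences are from RefSeq (GRCm38.p6), 250 bases before to 50 after each start. The scripts were tested on simulated data. The members and lists were chosen with earlier results of these data known. Alternatives were other pseudocounts, scalings, filters and models, leaving out each library, and leaving out chromosome 8, which was chosen after seeing the data.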

Additional observations from a re-analysis of the deposited data

How the results depend on the processing

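Of 1323 values for 113 named regions under 12 alternatives, 1244 kept their direction and side of the threshold, 18 lost the call, 29 gained one and 32 changed sign. The H3.3 counts were 4107 higher and 5424 lower after median centring and 4795 higher and 4674 lower after TMM scaling. Among regions at or above the median signal, which are fewer, they were 1236 higher and 3732 lower. The H3 counts were 1614 higher and 1505 lower after median centring, 1689 higher and 1348 lower after TMM scaling, and 690 higher and 1506 lower at or above the median signal. Leaving out 1 library gave 1923 to 2882 H3.3 regions higher and 4831 to 6951 lower, 793 to 1097 H3 regions higher and 1392 to 2033 lower, and 5265 to 5653 RNA genes higher and 4506 to 5141 lower. The lowest of these H3 counts, 1392 lower, was without day 0 replicate 1 and is the one that moved by over 1.5 times. Peaks of day 0 found again at day 6 were 51.6% (4967 of 9618) with any overlap, 34.3% when 50% of the peak had to overlap, 48.3% at a fold enrichment of at least 5, 55.5% and 46.3% in replicate 1 and replicate 2 alone and 48.7% without chromosome 8.

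With a replicate block the counts were 2672 higher and 6387 lower for H3.3, 1207 and 2307 for H3, and 5607 and 4937 for RNA. The correlations of same-numbered deviations between day 0 and day 6 were −0.03 for H3.3, −0.01 for H3 and −0.02 for RNA. RNA had −0.005 between days 0 and 3 and 0.09 between days 3 and 6. No pairing by number is visible in these values. They cannot show whether same-numbered samples shared a culture, because 2 libraries a day give 1 deviation per region or gene.

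The sign changed only at members that were not called with the deposited scaling and all libraries. After TMM scaling the values were 0.013 at Ezh2, 0.010 at Duxf3, 0.020 at Ubn1, 0.028 at Ddx4, 0.043 at Eomes, 0.048 at Ccna2, 0.050 at Dmrtb1, 0.062 at Snrpn, 0.059 at Plagl1, 0.062 at Ezh1, 0.059 at Sox11, 0.10 at Pax6 and 0.12 at Tek. After median centring they were 0.0051 at Ccna2, 0.0072 at Dmrtb1, 0.019 at Snrpn, 0.015 at Plagl1, 0.018 at Ezh1, 0.016 at Sox11, 0.054 at Pax6 and 0.074 at Tek. Leaving out 1 library gave ranges of −0.0099 to 0.225 at Zeb1, −0.0090 to 0.131 at Rdh10, −0.054 to 0.278 at Crabp1, −0.170 to 0.048 at Ezh1, −0.155 to 0.028 at Sox11, −0.093 to 0.041 at Pax6, −0.013 to 0.050 at Sox7, −0.10 to 0.11 at Krt8 and −0.038 to 0.026 at Tek. The cause was not tested.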
